A study of Mus musculus with 12 samples.

Results

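The MHC and antigen presentation genes were examined in RNA-seq libraries of the cochlear sensory epithelium of P6 mice. The members were the rows of the count table whose symbol starts with H2- (34 genes), together with B2m, Tap1, Tap2, Tapbp, Cd74, Ciita, Nlrc5, Psmb8 and Psmb9, which made 43 of 28686 genes. In the annotation used here 39 of the 43 lie on chromosome 17, and B2m, Nlrc5, Ciita and Cd74 lie on chromosomes 2, 8, 16 and 18. The mutant group held 6 Sox2CreER/+ Jag1fl/fl mice, in which the tamoxifen-inducible Cre of the Sox2 locus acts in supporting cells, and the control group held 6 Sox2+/+ littermates that carry no Cre and either 1 or 2 floxed Jag1 alleles. Every pup of both groups was injected with tamoxifen at P0 and P1. The labels give the strain of all 12 mice as C57BL/6;129SV, while the methods of the study place the Sox2CreER line on C57BL/6J and the floxed Jag1 line on FVB/n. The replicates are single mice from more than 1 litter, and no litter is named for a library.

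MHC class I molecules are made of a polymorphic heavy chain and the shared light chain beta-2-microglobulin (B2m). They display peptides cut by the proteasome, pumped into the endoplasmic reticulum by the TAP transporter and loaded with the help of tapasin, on nearly every nucleated cell. Class II molecules are chain pairs that are mostly restricted to antigen-presenting cells, such as macrophages, dendritic cells and B cells. They travel with the invariant chain Cd74 and exchange its remnant for other peptides under H2-DM. Many of these genes carry different alleles in different inbred strains, a set of linked alleles being called an H-2 haplotype, and the reference genome is that of C57BL/6J. The counts of the table hold no allele information.

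Total counts ranged from 28498549 to 36134983 per library. Jag1, the deleted gene, lay between 83.0 and 118 CPM (the read count scaled to the size of the library, with TMM factors) in controls and between 24.2 and 42.9 CPM in mutants, so the groups did not overlap (log2 fold change -1.48 ± 0.13 (SE), edgeR quasi-likelihood test, adjusted p = 0.000258). Over all 18459 genes tested, 20 were higher and 15 lower in mutants at an adjusted p under 0.05. Schwann cell markers (12 of 13 higher at an unadjusted p under 0.05) and neuron markers (13 of 17) were fitted higher in the same libraries, though 0 genes of either list passed an adjusted p under 0.05 by edgeR. The supporting cell markers Hey1 and Lfng, a target and a modifier of Notch signalling, fell (log2 fold changes -0.74 ± 0.09 and -0.45 ± 0.07 (SE), edgeR adjusted p = 0.00204 and 0.0204).

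Per length, the light chain B2m was by far the most abundant member, at 303 ± 29.0 CPM per kb of exon in controls (SD, n = 6). The classical class I heavy chain H2-D1 followed at 52.5 ± 8.16 CPM per kb, tapasin (Tapbp) at 36.6 ± 5.0 CPM per kb and the other classical heavy chain, H2-K1, at 26.4 ± 3.29 CPM per kb. Each of these neighbours differed by more than the sum of their SDs. Below them H2-DMb1 (5.98 ± 1.36 CPM per kb), H2-T23 (5.93 ± 2.64), H2-Q4 (4.61 ± 0.48), Cd74 (4.38 ± 1.28) and H2-DMb2 (4.27 ± 0.81) formed a run in which neighbours did not differ beyond the larger of their SDs. The class II chains H2-Ab1 (0.632 ± 0.207 CPM per kb), H2-Aa (0.594 ± 0.159) and H2-Eb1 (0.519 ± 0.189) were lower and also did not differ beyond their spread. The 2 transactivators were detected at 0.0864 ± 0.0313 CPM per kb for Nlrc5, which switches on class I genes, and 0.0656 ± 0.0352 CPM per kb for Ciita, which does so for class II genes.

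Of the 43 members, 34 averaged 5 or more reads per library and entered the test. The other 9 were H2-Ke6 (53 reads over all 12 libraries), H2-M6-ps (55), H2-M10.2 (21), H2-T3 (21), H2-Eb2 (18), H2-Q5 (12), H2-Ea-ps (10), H2-M2 (8) and H2-Pa (2). H2-Ke6 is named for its place in the complex and encodes a dehydrogenase, and 92.0% of the 100-base windows of its transcript also occur in other genes, chiefly Gm20427. Their genotype values are not described. When they entered the fit without a filter, 0 members passed an adjusted p under 0.05 by edgeR and 5 passed before adjustment.

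Transcription of class I and class II genes depends on an upstream module in which an X2 box, read by CREB and ATF factors, is followed by a Y box, read by NF-Y. Nlrc5 and Ciita act through this module. The RefSeq promoter windows of build GRCm38.p6, from 250 bases before to 50 bases after each transcript start, had an entry for 28 of the 43 members. The core TGACG followed by ATTGG after 19 to 21 bases was searched on both strands. It was found in 6 of those 28 members (21.4%), and in 58 of all 27025 genes with a window (0.215%). The 6 stretches are printed to show the bases around the cores in genes with very different levels. The cores themselves and their spacing were set by the search. Each runs 5′ to 3′ on the strand of its gene and ends at the Y box, and capitals mark the 2 cores.
B2m: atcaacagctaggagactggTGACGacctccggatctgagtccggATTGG
H2-D1: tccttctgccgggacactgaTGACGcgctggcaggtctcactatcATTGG
H2-K1: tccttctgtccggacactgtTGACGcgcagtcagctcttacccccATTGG
H2-M3: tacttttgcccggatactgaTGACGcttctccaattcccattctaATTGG
H2-Q7: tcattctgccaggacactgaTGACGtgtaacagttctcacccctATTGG
H2-Aa: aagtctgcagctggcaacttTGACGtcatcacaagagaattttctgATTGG
They lie at chr2:122147589-122147638 (B2m, plus strand), chr17:35262973-35263022 (H2-D1, plus), chr17:34000359-34000408 (H2-K1, minus), chr17:37270168-37270217 (H2-M3, plus), chr17:35439071-35439119 (H2-Q7, plus) and chr17:34287867-34287917 (H2-Aa, minus), all upstream of the RefSeq transcript start. For H2-D1 the GENCODE gene starts further upstream, at position 35262730, so that its stretch lies inside that gene model. The cores stand 20 bases apart in B2m, H2-D1, H2-K1 and H2-M3, 19 in H2-Q7 and 21 in H2-Aa. An interferon response motif, GAAANNGAAA on either strand, was found in the windows of B2m, H2-T22 and H2-T23 (10.7% of the 28 members). Over all genes with a window the share was 3.99%. These matches are descriptions of sequence, and levels of the 6 genes ranged from 303 CPM per kb in controls for B2m to 0.079 ± 0.046 CPM per kb for H2-Q7.

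Before the genotypes are compared, 2 libraries have to be described, control 5 and mutant 3, one of each genotype. They were singled out after their values had been seen. In 13 of the 30 tested members on chromosome 17 (43.3%) both of these mice lay outside the range of the other 10 on the same side, 5 times above and 8 times below. Over all genes tested this held for 0.905%. It held for 11 of the 112 other genes that lie between the outermost H2- members (9.82%), for 22 of 722 genes on the rest of chromosome 17 (3.05%), for 119 of 17175 genes on other chromosomes (0.693%), and for 0 of the 4 members elsewhere in the genome.

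The widest such gap was that of H2-T22, a nonclassical class I gene, which stood at 16.8 CPM in control 5 and 17.3 CPM in mutant 3. The other 10 mice lay between 2.94 and 4.49 CPM, so both mice were more than 4-fold above the median of the rest (4.35 and 4.49 times). H2-T23, which encodes Qa-1, the ligand of an inhibitory receptor of natural killer cells, stood at 32.7 CPM in control 5 and 24.3 CPM in mutant 3 against 11.1 to 16.2 CPM in the other 10 mice. H2-T24 (4.19 and 6.84 CPM against 2.77 to 3.92 CPM) and H2-Pb, a class II pseudogene (0.520 and 0.424 CPM against 0.0584 to 0.413 CPM), were also above.

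Other members were low in the same pair of mice. H2-D1 stood at 95.2 CPM in control 5 and 81.8 CPM in mutant 3, below the 130 to 212 CPM of the other 10 mice. H2-T10, a relative of H2-T22, was at 5.72 and 4.77 CPM against 9.15 to 12.4 CPM. H2-K2, a transcribed pseudogene next to H2-K1, was at 0.781 and 0.650 CPM against 1.33 to 2.24 CPM. H2-Bl, H2-Q1, H2-Q4, H2-Q6 and H2-DMb2 were below as well, while H2-K1 itself was lowest of its genotype in each of the 2 mice (65.9 and 53.1 CPM). Against the other 10 mice, which started at 64.0 CPM, mutant 3 was below and control 5 within the range.

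The adjacent paralogs H2-DMb1 and H2-DMb2, which encode beta chains of H2-DM, moved in opposite directions in these 2 mice. H2-DMb1 was at 13.9 and 14.2 CPM against 7.84 to 11.6 CPM in the other 10, and H2-DMb2 at 5.0 and 4.49 CPM against 6.43 to 9.13 CPM. Of the reads of both genes together, H2-DMb1 took 73.6% in control 5 and 76.0% in mutant 3, and 51.5% to 59.6% in the other mice. The summed level of the pair was 18.9 and 18.7 CPM, within the 14.5 to 20.7 CPM of the rest. For H2-T22 and H2-T10 the share of H2-T22 was 74.6% and 78.4% against 22% to 30.8%, and here the sum was higher too, at 22.5 and 22.1 CPM against 12.7 to 16.3 CPM.

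Several of these genes share sequence with others, so that a read of one may be counted for another or left uncounted. Which of these held depends on counting settings that are not given in the sources used here. Of the 100-base windows along the longest transcript, a window being as long as a read of these libraries, 38.1% of H2-T22, 29.7% of H2-T10, 13.7% of H2-DMb1, 12.9% of H2-DMb2, 4.64% of H2-D1 and 3.93% of H2-T23 also occur in transcripts of other genes, overlapping genes included, and 0% of H2-K1 and B2m do. For H2-K1 the 0% holds for its longest transcript only, since windows of H2-Q10 and H2-Q5 also occur in H2-K1 transcripts. Whether the 2 mice carry another H-2 haplotype was not tested, and expression and the mapping of unlike alleles cannot be told apart in these counts. For the members named here as set apart, the genotype value without these libraries is given beside the main one.

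**Figure D1:**
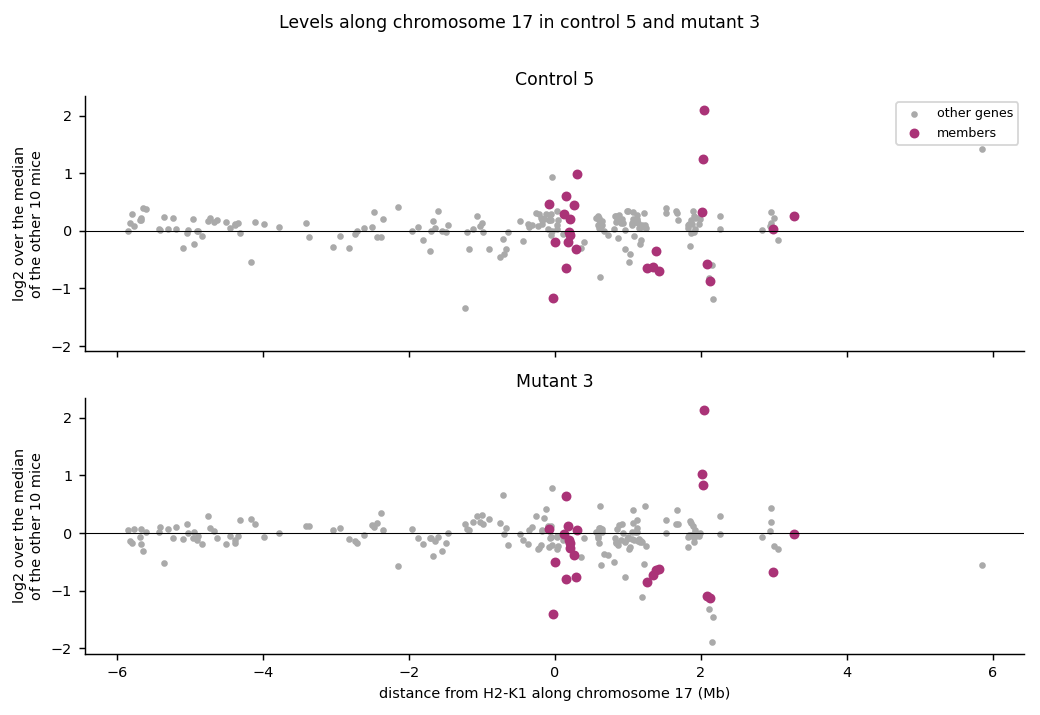
Level of each gene within 6 Mb of H2-K1 in control 5 (upper panel) and mutant 3 (lower panel), as log2 of its CPM over the median of the other 10 mice, against its distance from H2-K1 in Mb; magenta points are the 24 members with a mean count of at least 20 and grey points 184 other genes. In both mice members near H2-K1 and about 2 Mb away spread widely, with H2-T22 at the top and H2-K2 near the bottom.

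**Figure D2:**
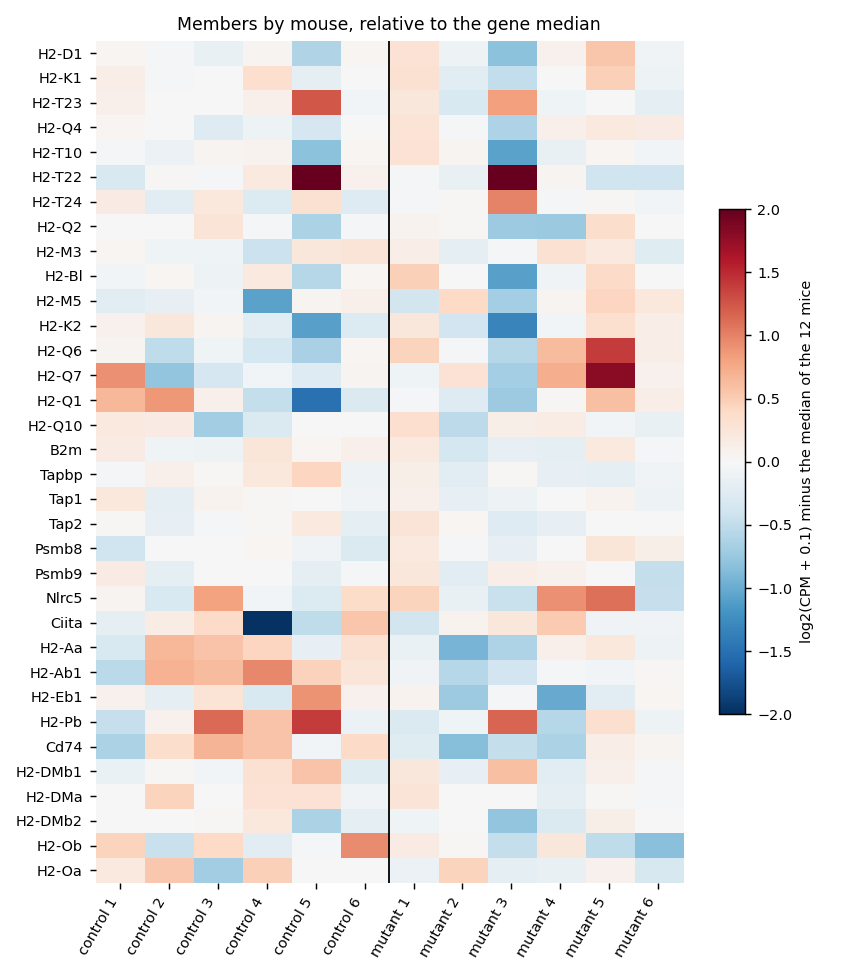
Levels of the 34 tested members (rows, by role) in the 12 mice (columns), as log2(CPM + 0.1) minus the median of the 12 mice. Control 5 and mutant 3 share a column pattern of high H2-T22 and H2-T23 and low H2-K2, H2-T10 and H2-D1 across the line that divides the genotypes, while mutant 5 was highest for H2-Q6 and H2-Q7.

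The comparison of mutant with control mice asks which genes differed between mice with Jag1 deleted in supporting cells and littermates without Cre. Only the mutants carry the Cre at a Sox2 allele. Effects of the Jag1 deletion and of that allele cannot be told apart in these libraries. No member passed an adjusted p under 0.05 by edgeR, against 0.19% of all genes tested, and none did by DESeq2 or limma-voom. Over all genes, DESeq2 called many more than edgeR and limma-voom fewer, with the counts given in the closing section. At p under 0.05 before adjustment, 4 members were lower in mutants (H2-Ab1, Cd74, H2-Aa and Tapbp) and 1 was higher (H2-Q6), where 4.04% of all genes tested were lower and 6.52% higher. The 5 make 14.7% of the 34 tested members, against 10.6% of all genes tested at that p in either direction. The median log2 fold change was -0.01 over the members and 0.00 over all genes. In no member did the 2 genotypes separate without overlap, which 0.997% of all genes tested did.

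The precision differed among the members. Of members with a mean count of at least 100, 16 in number, the median SD within a genotype was 0.29 on the log2 scale, with a range from 0.12 for Tap1 to 0.91 for H2-T22. Over the 13059 genes with as many counts the median SD was 0.16.

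**Figure D3:**
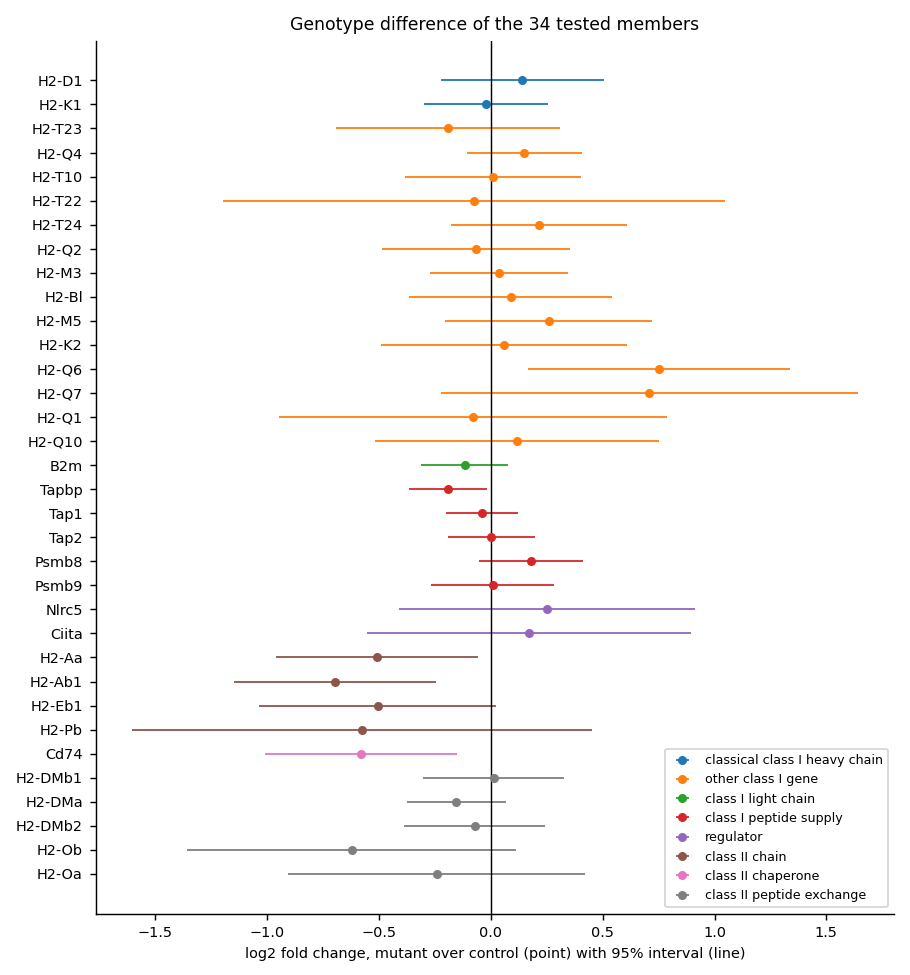
Genotype difference of the 34 tested members, grouped and coloured by role and ordered by mean CPM within a role, as the log2 fold change of mutant over control (points) with its 95% interval (lines). All class II chains and Cd74 lie below 0, most class I genes straddle it, and only the intervals of H2-Q6, Tapbp, H2-Aa, H2-Ab1 and Cd74 do not reach it.

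Among class I genes, the heavy chains with the most reads did not pass the test. H2-D1 had a lowest, median and highest level of 95.2, 144 and 150 CPM in controls and of 81.8, 145 and 212 CPM in mutants, and the groups overlapped over most of their range. Its log2 fold change was 0.14 ± 0.19 (SE), with a 95% interval from -0.22 to 0.51, and 0.18 ± 0.12 without control 5 and mutant 3. H2-K1 lay at 65.9, 74.8 and 94.3 CPM in controls and at 53.1, 72.6 and 104 CPM in mutants, with a log2 fold change of -0.02 ± 0.14 (95% interval -0.30 to 0.26), and 0.02 ± 0.13 without these 2 mice.

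B2m, the light chain, lay at 232, 262 and 295 CPM in controls and at 194, 231 and 285 CPM in mutants. Its levels overlapped, with a log2 fold change of -0.12 ± 0.10 (SE) and a 95% interval from -0.31 to 0.08. B2m lies outside the H2 complex, on chromosome 2, at 14.93 Mb from Jag1.

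The nonclassical gene H2-T23 lay at 13.2, 14.3 and 32.7 CPM in controls and at 11.1, 13.3 and 24.3 CPM in mutants, each highest value being that of the mouse named above. Its log2 fold change was -0.19 ± 0.26 (SE), and without these mice -0.10 ± 0.10. H2-T22 gave -0.08 ± 0.57, with an interval from -1.20 to 1.05, and -0.18 ± 0.14 without them. H2-Q4, a nonclassical gene that was low in these mice, gave 0.15 ± 0.13, and 0.21 ± 0.09 without them (edgeR adjusted p = 0.369). Without mutant 3 alone it gave 0.25 ± 0.09 (edgeR adjusted p = 0.251), and in both of these fits p was under 0.05 before adjustment. H2-T10 gave 0.01 ± 0.20, and 0.04 ± 0.10 without the 2 mice, and H2-K2 gave 0.06 ± 0.28, and 0.08 ± 0.18 without them. Of the genes with fewer reads, H2-Bl gave 0.09 ± 0.23 with and 0.16 ± 0.16 without the 2 mice, H2-Q1 -0.08 ± 0.44 and -0.17 ± 0.36, and H2-T24 0.21 ± 0.20 and 0.05 ± 0.14. None of these passed an adjusted p under 0.05 by edgeR.

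H2-Q6, one of the Q genes related to the Qa-2 antigen, was the only member above 0 at an unadjusted p under 0.05. It lay at 0.665, 0.936 and 1.14 CPM in controls and at 0.706, 1.37 and 3.06 CPM in mutants, with 5 of 6 mutants above the control median. The log2 fold change was 0.75 ± 0.30 (SE; edgeR p = 0.0245, adjusted p = 0.353; two-sided exact permutation p = 0.0758). Without mutant 5, the highest library, it was 0.44 ± 0.24 (adjusted p = 0.655), and without control 5 and mutant 3 it was 0.82 ± 0.28. With neuron and Schwann cell scores as covariates it was 1.15 ± 0.44 (edgeR adjusted p = 1). Its neighbour H2-Q7, of which 13.5% of windows occur in other genes, H2-Q6 among them, was likewise highest in mutant 5, at 1.39 CPM.

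**Figure D4:**
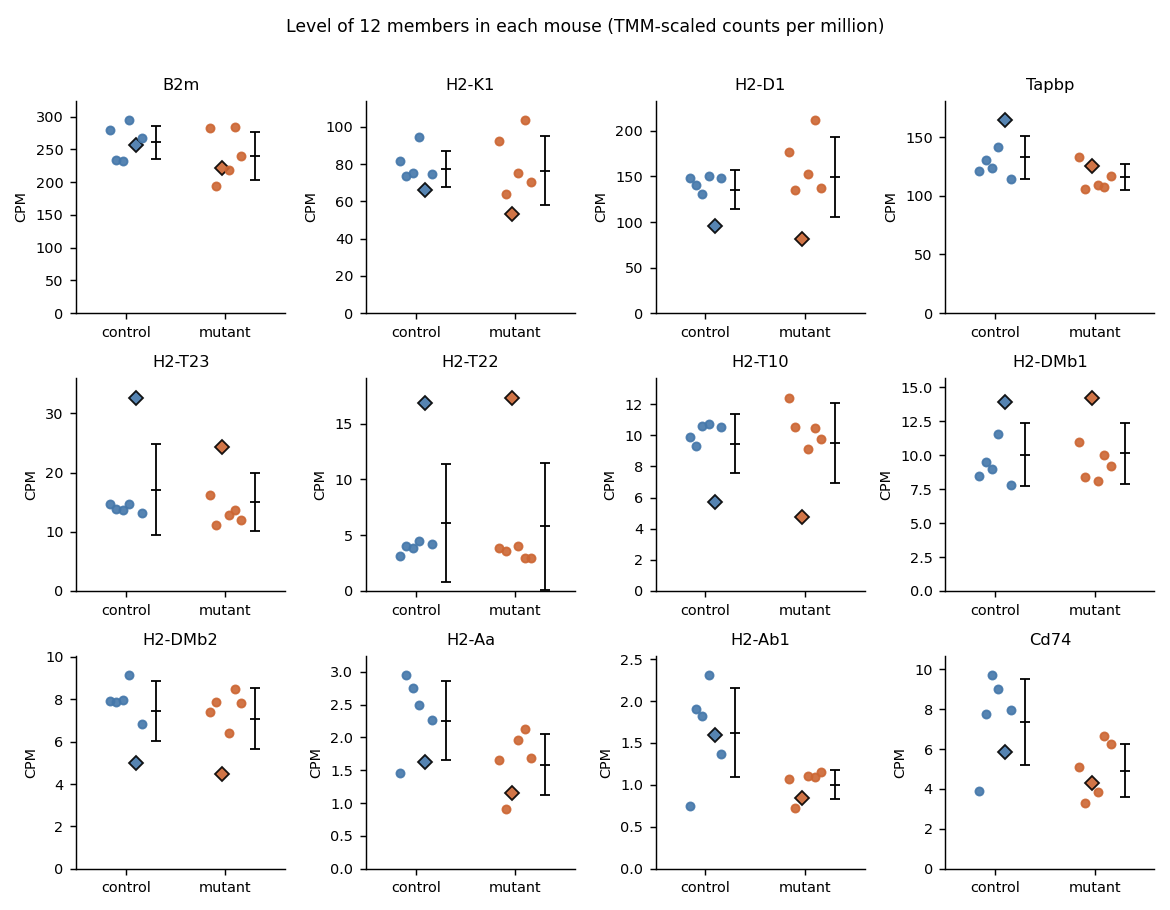
Level of 12 members in every mouse, in CPM on linear axes from 0, with controls in blue and mutants in orange; diamonds mark control 5 and mutant 3, and the bar beside each group its mean ± SD (n = 6). The diamonds stand apart from the circles in H2-D1, H2-T23, H2-T22, H2-T10, H2-DMb1 and H2-DMb2, while H2-Aa, H2-Ab1 and Cd74 have lower means in mutants.

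Of the genes that supply class I peptides, Tapbp, the loading chaperone tapasin, was the gene with a p under 0.05 before adjustment. It lay at 114, 127 and 165 CPM in controls and at 105, 113 and 133 CPM in mutants, with 5 of 6 mutants below the control median. The log2 fold change was -0.19 ± 0.09 (SE; edgeR p = 0.0466, adjusted p = 0.458; two-sided exact permutation p = 0.0736). The highest value belonged to control 5, and without that library the log2 fold change was -0.12 ± 0.08. Exons of Tapbp overlap those of Zbtb22 and Gm19412, and 14.0% of its windows occur in other genes.

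The transporter subunits varied least. Tap1 lay between 9.43 and 12.3 CPM in controls and between 9.49 and 11.4 CPM in mutants (log2 fold change -0.04 ± 0.08 (SE), 95% interval -0.20 to 0.12). Tap2 lay between 8.89 and 11.7 CPM and between 8.48 and 12.2 CPM (0.00 ± 0.10, 95% interval -0.19 to 0.20). The immunoproteasome subunits Psmb8 (2.74 to 3.74 CPM in controls and 3.25 to 4.32 CPM in mutants, log2 fold change 0.18 ± 0.12) and Psmb9 (2.20 to 2.85 CPM and 1.78 to 2.97 CPM, 0.01 ± 0.14) did not pass the test. Tap1 and Psmb9 lie on opposite strands with 212 shared exon bases, and whether strand was used in the counting is not given in the sources used here.

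Among the members, class II genes were where the fitted differences leaned one way. Of 11 tested, 9 were fitted lower in mutants, 3 of them at an unadjusted p under 0.05, and the median log2 fold change was -0.51. The 23 tested class I genes had a median of 0.04, with 8 fitted lower and 15 higher. The difference between the 2 classes was not tested, and all of these genes were measured in the same 12 libraries. A lean to lower values was not particular to class II. Of lists outside the members, 29 of 34 other antigen processing genes, 25 of 34 interferon-stimulated genes and 17 of 17 macrophage markers were fitted lower. For dendritic and B cell markers it was 3 of 11, and over all genes 9056 of 18459.

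H2-Ab1, the beta chain of the I-A molecule, lay at 0.749, 1.71 and 2.31 CPM in controls and at 0.728, 1.08 and 1.16 CPM in mutants. All 6 mutants were below the control median, and control 1 lay among the mutants. The log2 fold change was -0.70 ± 0.23 (SE; edgeR p = 0.00896, adjusted p = 0.212; two-sided exact permutation p = 0.0346). Without control 1 it was -0.85 ± 0.19, with an adjusted p of 0.0787 that was the lowest of any named member under any alternative tried.

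H2-Aa, the alpha chain that pairs with it, lay at 1.46, 2.38 and 2.95 CPM in controls and at 0.910, 1.67 and 2.13 CPM in mutants. Again all 6 mutants were below the control median (log2 fold change -0.51 ± 0.23 (SE); edgeR p = 0.0433, adjusted p = 0.447; two-sided exact permutation p = 0.0714). H2-Eb1, the beta chain of I-E, lay at 0.686, 0.928 and 1.71 CPM in controls, the highest being control 5, and at 0.380, 0.793 and 0.920 CPM in mutants (-0.51 ± 0.27, adjusted p = 0.572). Without control 5 its log2 fold change was -0.29 ± 0.25, and -0.35 ± 0.27 without control 5 and mutant 3. The pseudogene H2-Pb gave -0.58 ± 0.52, and -0.74 ± 0.49 without these 2 mice. Counts behind the 3 chains were low, from 13 reads of H2-Eb1 to 99 reads of H2-Aa per library.

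Cd74, the invariant chain, had more reads, from 109 to 289 per library. It lay at 3.89, 7.86 and 9.70 CPM in controls and at 3.31, 4.72 and 6.64 CPM in mutants, all 6 mutants being below the control median. The log2 fold change was -0.58 ± 0.22 (SE; edgeR p = 0.0191, adjusted p = 0.311; two-sided exact permutation p = 0.0563), and -0.61 ± 0.25 without control 5 and mutant 3. Cd74 is on chromosome 18, outside the H2 complex, and in neither of these mice did it leave the range of the other 10.

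The genes of peptide exchange did not pass the test. H2-DMa lay at 6.59, 7.64 and 9.46 CPM in controls and at 5.99, 6.91 and 8.28 CPM in mutants (log2 fold change -0.15 ± 0.11 (SE)). H2-DMb1 (0.01 ± 0.16, and 0.01 ± 0.13 without control 5 and mutant 3) and H2-DMb2 (-0.07 ± 0.16, and -0.06 ± 0.11 without them) differed far more between the 2 mice named above and the rest than between genotypes. H2-Oa and H2-Ob, chains of the inhibitor H2-DO, had at most 19 reads in a library (-0.24 ± 0.34 and -0.62 ± 0.38). Ciita was detected at 3 to 35 reads per library, with a log2 fold change of 0.17 ± 0.37, and Nlrc5 at 15 to 55 reads, with 0.25 ± 0.34. Neither passed the test.

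Markers of macrophages, a cell type that carries class II molecules, were measured in the same libraries. None of the 17 was at 0 in all libraries, and all 17 were fitted lower in mutants, of which 8 had a p under 0.05 before adjustment and 0 after it (edgeR). Markers of other cell types went both ways. Fitted lower were 10 of 10 for fibroblasts, 10 of 11 for endothelium, 10 of 12 for supporting cells and 5 of 6 for red blood cells. Of these, 2, 3, 4 and 1 had a p under 0.05 before adjustment (edgeR). For T and NK cells 4 of 5 were fitted lower. Fitted higher were 13 of 13 for Schwann cells, 16 of 17 for neurons, 8 of 11 for dendritic and B cells and 7 of 12 for hair cells. The summed level of the 17 macrophage markers ranged from 526 to 731 CPM (median 587) in controls and from 433 to 547 CPM (median 529) in mutants. Csf1r, the receptor that maintains macrophages, lay between 119 and 135 CPM in controls and between 95.5 and 117 CPM in mutants without overlap (log2 fold change -0.24 ± 0.07 (SE), edgeR adjusted p = 0.126). The sum of H2-Aa, H2-Ab1 and H2-Eb1 ranged from 3.14 to 5.64 CPM (median 5.20) in controls and from 2.12 to 3.96 CPM (median 3.55) in mutants.

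With the macrophage score of each library (the mean log2 level of its markers) as a covariate, the log2 fold changes were -0.43 ± 0.28 (SE) for H2-Ab1, -0.26 ± 0.28 for H2-Aa and -0.23 ± 0.24 for Cd74, and -0.53 ± 0.33 for H2-Eb1, which was -0.51 without it. With neuron and Schwann cell scores as covariates they were -0.16 ± 0.36, -0.09 ± 0.35, 0.08 ± 0.30 and -0.50 ± 0.39 in the same order. Fewer cells of a type and less RNA per cell cannot be told apart in bulk tissue. Markers of dendritic and B cells summed to between 23.9 and 31.0 CPM in controls and between 22.4 and 37.1 CPM in mutants, and 11 of the 13 were tested. Most of this sum was Zbtb46 alone, with a mean of 18.8 CPM in controls and 18.8 CPM in mutants, so it says little about the other markers. In that list Flt3 (log2 fold change 1.99 ± 0.62 (SE)) and Itgax (-1.71 ± 0.71) had a p under 0.05 before adjustment, with edgeR adjusted p-values of 0.169 and 0.393. T and NK cell markers were scarce, with 6 of 11 under a mean count of 5 and a summed level of 8.70 to 11.3 CPM in controls and 8.86 to 9.95 CPM in mutants.

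**Figure D5:**
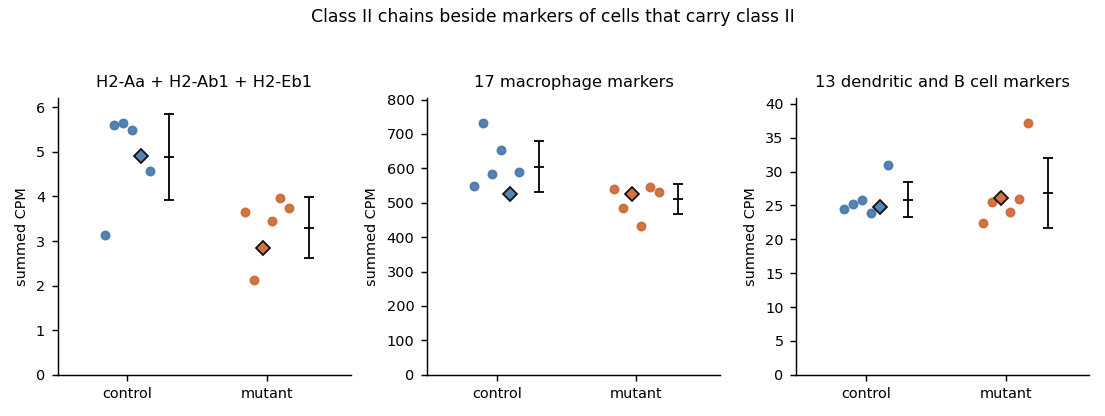
Summed CPM per mouse of the class II chains H2-Aa, H2-Ab1 and H2-Eb1 (left), of 17 macrophage markers (middle) and of 13 dendritic and B cell markers (right), with controls in blue, mutants in orange, diamonds for control 5 and mutant 3, and bars for the mean ± SD (n = 6). The class II sum and the macrophage sum had lower medians in mutants (3.55 against 5.20 CPM and 529 against 587 CPM), with overlap in both. Most of the dendritic and B cell sum is Zbtb46 alone (mean 18.8 CPM in each genotype).

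Other genes of antigen processing had small fitted differences, most of them lower in mutants. Of 34 tested, 0 passed an adjusted p under 0.05 by edgeR. At an unadjusted p under 0.05, 10.6% of all genes tested differed in either direction and 4.04% were lower. In this list 3 genes were lower at that p (8.82%). These were Mr1, which presents vitamin metabolites to MAIT cells (50.2 to 58.9 CPM in controls and 48.0 to 52.8 CPM in mutants, log2 fold change -0.13 ± 0.05 (SE)), Lgmn, a lysosomal protease (-0.17 ± 0.07), and Hfe, a class I-like regulator of iron uptake (-0.20 ± 0.09). Their edgeR adjusted p-values were 0.366, 0.392 and 0.429. The median log2 fold change of this list was -0.07, with 29 of 34 fitted lower. Calr, the chaperone of class I folding, gave -0.21 ± 0.11, and Rfx5, a factor of the X box, -0.08 ± 0.13.

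Interferon induces many class I genes. Of 34 tested interferon-stimulated genes 0 passed an adjusted p under 0.05 by edgeR. At an unadjusted p under 0.05, 2 passed (5.88%), against 10.6% of all genes tested. Iigp1, a GTPase that acts against intracellular parasites, lay between 19.1 and 21.8 CPM in controls and between 18.4 and 27.9 CPM in mutants (log2 fold change 0.28 ± 0.09 (SE), edgeR adjusted p = 0.196). Ifitm3, a membrane protein that restricts virus entry, lay between 49.5 and 62.3 CPM and between 41.8 and 58.9 CPM (-0.25 ± 0.08, edgeR adjusted p = 0.202). The median over the list was -0.06, with 25 of 34 fitted lower.

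The other genes that lie between the outermost H2- members, a stretch of 3.51 Mb, served to compare the members with their neighbours. Of 112 tested, 0 passed an adjusted p under 0.05 by edgeR. At an unadjusted p under 0.05, 9 passed (5 higher and 4 lower in mutants), which is 8.04% against 10.6% of all genes tested. Their median log2 fold change, over all 112, was -0.02. The genotypes did not overlap in 1 of the 112, while control 5 and mutant 3 stood apart from the other mice in 11.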

How the data were processed

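RNA-seq (single end) of 12 cochlear libraries was used, 6 per genotype, grouped by the genotype in the labels. The authors deposited whole-number counts of reads per gene. The submitters' processing notes name Trimmomatic 0.32, STAR 2.4.2a, HTSeq 0.9.1, DESeq2 1.10.1 and GRCm38.p4, and the annotation and strand setting are not given in the sources used here. A deposited table of the authors' own DESeq2 comparison (fold changes and p-values) was not used. Counts were tested with edgeR 4.0.16 (TMM factors, robust quasi-likelihood F-test, no covariate, R 4.3.3) in genes averaging 5 or more reads per library, with Benjamini-Hochberg adjustment over all 18459. Standard errors were taken from the fold change and its F value. Single members were also tested on log2(CPM + 0.1) over all 924 divisions of the mice, which cannot give a p below 0.00216. Alternatives were DESeq2 1.42.0, limma-voom 3.58.1, other scalings and filters, marker scores as covariates, the replicate number as a block, and each library left out. The fits were tested on simulated data. No pair of replicates agreed within sampling noise (30 pairs).

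Gene positions came from GENCODE M21 (94.67% of rows found, by symbol or synonym). The members and all lists were chosen with earlier results of these data known. Values are given for the 9 members without the H2- prefix, the 3 with the highest mean CPM in each role, those at an unadjusted p under 0.05 and the 3 with a mean count of at least 50 and the widest range. H2-Eb1, H2-Q7, H2-Oa, H2-Ob, Calr, Rfx5, Csf1r, Flt3, Itgax, Hey1, Lfng and those described for control 5 and mutant 3 were added after their values were seen. Total counts of 28498549 to 36134983 were reached per library. P-values judge a genotype difference against the spread between mice, which were treated as independent although litters are not known.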

Additional observations from a re-analysis of the deposited data

Results flagged for a closer look

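In 11 of 68 groups examined (34 tested members in each genotype), 1 mouse stood apart from the other 5 of its genotype by Dixon's criterion, which chance alone would give in about 1 group in 20. Of these, 4 were control 5 among controls for the class I genes H2-D1 (95.2 CPM, the lowest control), H2-T10 (5.72 CPM, the lowest), H2-T22 (16.8 CPM, the highest) and H2-T23 (32.7 CPM, the highest), and 1 was control 5 for the class II chain H2-Eb1 (1.71 CPM, the highest). Mutant 3 stood apart among mutants for H2-T22 (17.3 CPM), H2-T24 (6.84 CPM) and H2-Pb (0.424 CPM), each as the highest. The 3 others involved different mice. H2-M5 was lowest in control 4, at 0.810 CPM. H2-Q7 was highest among controls in control 1, at 0.713 CPM, and highest among mutants in mutant 5, at 1.39 CPM. The cause was not tested in any of them.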

How the results depend on the processing

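No member passed an adjusted p under 0.05 under any of the 23 alternatives. The members' median log2 fold change moved by less than the median standard error of their fold changes. The count over all genes was 35 and did depend on the processing, with 619 by DESeq2 (473 higher, 146 lower), 19 by limma-voom, 57 without a filter, 131 with the replicate block, 1 with neuron and Schwann cell scores, 6 with the macrophage score and 20 without control 5 and mutant 3 (chosen after seeing the data), and from 14 to 357 when each library was left out, 357 being without mutant 5. The count of members at an unadjusted p under 0.05, 5 above, was 3 by limma-voom, 3 with the replicate block, 2 with neuron and Schwann cell scores and 1 with the macrophage score, and from 2 (without control 2) to 6 (without control 1) with single libraries left out. Pathway genes at that p numbered 3, and 1 with the replicate block, 0 with either set of scores and from 0 to 5 with single libraries left out. Interferon-stimulated genes numbered 2, and 1 with neuron and Schwann cell scores and from 2 to 6. Genes between the members numbered 9, and 2 with neuron and Schwann cell scores, 5 with the macrophage score and from 6 to 17. The cause of these shifts was not tested. Correlations of deviations between mice of the same replicate number ranged from -0.19 to 0.27. They cannot show whether such mice share a litter or batch, since neither is named for a library.

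In 63 of 506 fits of named members, none of them past the threshold, the log2 fold change had the other sign. With neuron and Schwann cell scores these were B2m (0.00579), Cd74 (0.083), Ciita (-0.176), Psmb9 (-0.0336), Tap2 (-0.0851), H2-K1 (0.162), H2-T10 (-0.102), H2-DMb2 (0.0162) and H2-T22 (0.438). With the macrophage score they were Ciita (-0.0403), Psmb9 (-0.0455), H2-K1 (0.0777), H2-DMa (0.0306) and H2-DMb2 (0.0792). Without control 5 and mutant 3 they were Psmb9 (-0.0582) and H2-K1 (0.0216). With the replicate block they were Psmb9 (-0.00587), Tap2 (-0.00117) and H2-T10 (-0.0108), and by limma-voom Psmb9 (-0.00284), Tap2 (-0.00275) and H2-T10 (-0.0157). Tap2 also changed sign by DESeq2 (-0.000383), with RLE factors (-5.33e-05) and without a filter (-0.00458). With single libraries left out, Ciita ranged from -0.0546 to 0.369, Psmb9 from -0.05 to 0.0867, Tap2 from -0.0584 to 0.0497, H2-K1 from -0.128 to 0.0645, H2-T23 from -0.385 to 0.0968, H2-T10 from -0.101 to 0.147, H2-DMb1 from -0.109 to 0.129, H2-DMb2 from -0.165 to 0.0293, H2-T22 from -0.811 to 0.554 and H2-K2 from -0.0841 to 0.224. H2-T22 turned positive without control 5 (0.554) and was lowest without mutant 3 (-0.811). Ciita had as few as 3 reads in a library, and how much of its spread between mice is counting error was not tested.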
